A study of Mus musculus with 2 samples.

Results

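Intronic distal open regions are stretches of open chromatin that lie inside protein-coding genes, away from exons and from gene starts. ATAC-seq inserts sequencing adapters with the Tn5 transposase, which reaches DNA that is free of nucleosomes, and places where insertions pile up are listed as peaks. The members here were replicate 1 intervals, counted once at their strongest summit, that overlapped a replicate 2 interval by at least 1 bp. Their summit lay over 1 kb from the transcription start site (TSS) of every transcript of a protein-coding gene, inside such a gene and outside all exons of such genes. This rule gave 4601 members among 19727 regions shared by the replicates, or 23.3% (95% Wilson interval 22.7 to 23.9%). The replicate 1 list held 25141 intervals and the replicate 2 list held 24495. The other shared regions were 8903 at promoters, 5777 distal and intergenic, and 446 distal and exonic.

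The series holds 1 group, hematopoietic stem cells of C57BL/6J mice that were adult, male and 5 to 6 weeks old. Such cells are rare in bone marrow, can copy themselves and are the source of every blood lineage. Each of the 2 biological replicates was a library from 50000 cells, and the labels give both the same donor identifier, so separate animals are not established. There was no second cell type or treatment, and comparisons were made between the replicates, between classes of regions and between introns. Peak lists carry no read depth, and an absent region means only that none was called at the deposited threshold. In a sorted population, more cells with an open site and more opening per cell cannot be told apart. Promoters were open in both replicates in 9329 of 21938 protein-coding genes (42.5%) and in 11 of 20 stem cell transcription factor genes, a share near that background, so these promoters do not check the label. Open promoters numbered 3 of 14 for erythroid, 3 of 16 for granulocyte and monocyte, 4 of 13 for B cell and 3 of 16 for T and NK cell markers. They numbered 8 of 16 for megakaryocyte markers, again near the background.

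Introns hold many of the enhancers of mammalian genes, which are short DNA segments where transcription factors bind and from which they act on promoters that can lie far away. In blood stem cells such enhancers are known targets of RUNX1, of ETS factors such as FLI1 and ERG, and of GATA2 with its E-box binding partner TAL1. An enhancer in an intron need not act on the gene that hosts it, and peak lists do not say which promoter a region contacts. Host gene is therefore used below only for position.

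Windows of 100 bp to either side of the summit base are printed to show what these regions look like, on the plus strand of mm10, 5′ to 3′. Capitals mark exact matches, on either strand, to AGATAA (the GATA consensus), CAGGAAG and GAGGAAG (ETS consensus forms), TGTGGTT (RUNX) and the E-boxes CAGCTG and CAGATG. The first set is the strongest member in each of 6 stem cell transcription factor genes with the most members, where strongest means the highest value of the lower of its signal percentiles in the replicates.
Mecom, chr3:30206210-30206410: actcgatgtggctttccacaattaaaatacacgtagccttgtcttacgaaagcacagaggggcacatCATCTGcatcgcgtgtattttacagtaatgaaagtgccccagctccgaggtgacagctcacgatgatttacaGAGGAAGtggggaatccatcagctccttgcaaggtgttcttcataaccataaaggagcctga
Runx1, chr16:92620800-92621000: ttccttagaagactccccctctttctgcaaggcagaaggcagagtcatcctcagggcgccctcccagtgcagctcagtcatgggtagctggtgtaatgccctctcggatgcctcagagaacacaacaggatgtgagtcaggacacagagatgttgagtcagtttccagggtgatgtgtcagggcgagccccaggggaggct
Etv6, chr6:134065114-134065314: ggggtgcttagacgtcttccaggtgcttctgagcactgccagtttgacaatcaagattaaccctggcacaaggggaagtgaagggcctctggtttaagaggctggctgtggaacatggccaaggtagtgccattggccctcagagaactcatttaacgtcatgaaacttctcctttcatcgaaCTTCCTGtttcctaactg
Fli1, chr9:32539286-32539486: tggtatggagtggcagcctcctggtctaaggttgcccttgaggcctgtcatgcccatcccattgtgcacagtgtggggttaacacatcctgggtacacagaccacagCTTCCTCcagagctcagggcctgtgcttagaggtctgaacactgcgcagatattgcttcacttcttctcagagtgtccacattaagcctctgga
Ikzf2, chr1:69606956-69607156: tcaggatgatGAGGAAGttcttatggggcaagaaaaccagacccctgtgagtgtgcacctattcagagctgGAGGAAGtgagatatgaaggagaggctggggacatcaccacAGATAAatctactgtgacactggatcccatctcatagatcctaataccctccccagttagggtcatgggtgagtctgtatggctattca
Meis1, chr11:18969990-18970190: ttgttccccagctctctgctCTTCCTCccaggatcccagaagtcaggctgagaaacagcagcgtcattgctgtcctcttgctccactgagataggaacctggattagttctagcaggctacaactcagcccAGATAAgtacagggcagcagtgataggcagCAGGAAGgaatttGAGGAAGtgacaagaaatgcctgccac
Of these 6 windows, those in Ikzf2 and Meis1 held GATA and ETS matches together, those in Mecom, Etv6 and Fli1 held an ETS match without GATA, and that in Runx1 held none of the letters marked here.

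A further pair was chosen after the values had been seen, because these introns are known for blood enhancers.
Gata2, chr6:88203143-88203343: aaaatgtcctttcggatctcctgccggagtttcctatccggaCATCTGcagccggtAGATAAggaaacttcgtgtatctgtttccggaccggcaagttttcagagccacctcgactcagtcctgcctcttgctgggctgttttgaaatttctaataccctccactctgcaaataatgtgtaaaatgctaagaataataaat
Runx1, chr16:92801761-92801961: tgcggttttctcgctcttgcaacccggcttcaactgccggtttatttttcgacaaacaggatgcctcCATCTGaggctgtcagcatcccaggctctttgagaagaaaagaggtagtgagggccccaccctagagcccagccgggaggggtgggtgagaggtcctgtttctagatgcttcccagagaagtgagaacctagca
The Gata2 window held an E-box at position 43 and a GATA match at position 57, counted from the window's first base. An E-box next to a GATA site is the known arrangement of an intronic enhancer of Gata2, which TAL1 and GATA factors bind. The Runx1 window held an E-box at position 68.

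The strongest members over all introns form the last set, and their G and C content was below that of the windows above.
Gnb1l, chr16:18533166-18533366: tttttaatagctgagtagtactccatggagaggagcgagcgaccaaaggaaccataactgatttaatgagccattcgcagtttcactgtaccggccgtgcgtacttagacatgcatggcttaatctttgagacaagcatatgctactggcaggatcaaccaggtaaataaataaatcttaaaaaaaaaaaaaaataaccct
Zfp804b, chr5:7276773-7276973: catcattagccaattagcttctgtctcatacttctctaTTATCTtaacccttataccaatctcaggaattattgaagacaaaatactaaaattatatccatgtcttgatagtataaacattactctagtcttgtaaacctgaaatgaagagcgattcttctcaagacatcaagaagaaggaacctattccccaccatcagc
Nkain3, chr4:20191799-20191999: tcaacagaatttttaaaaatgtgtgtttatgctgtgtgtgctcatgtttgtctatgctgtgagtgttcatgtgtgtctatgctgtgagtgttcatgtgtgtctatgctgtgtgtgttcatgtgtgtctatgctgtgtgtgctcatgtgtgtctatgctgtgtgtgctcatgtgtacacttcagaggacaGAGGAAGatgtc
G and C made up 39.3%, 34.3% and 42.3% of these windows. The 31 bases at the Gnb1l summit occur 2 times on the assembled chromosomes, and those at the Zfp804b summit occur also in the mitochondrial genome. Nuclear copies outside the assembled chromosomes were not counted, so 2 is a lower limit. In the Nkain3 window 73.1% of bases are masked as repeats. Whether reads from other copies of these sequences add to the signal was not tested.

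Introns held 42.5% of the 10824 shared distal regions (interval 41.6 to 43.4%), while they make up 34.9% of the distal sequence of the genome. Density was 5.18 members per Mb of eligible intron, against 3.63 per Mb in intergenic sequence, 6.38 in distal exons and 90.9 in promoter windows. Eligible intron means intron sequence that the rule allows, outside exons and over 1 kb from every TSS. Among autosomes the density ran from 4.30 to 6.22 per Mb, with a median of 5.37. The X chromosome, which is present once in male cells, had 67 members at 1.68 per Mb, and the Y chromosome had 0.

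The signal value is the score that the authors' peak caller gave to each summit, and it was compared within a list. In replicate 1 the median signal of members was 8.60 (quartiles 7.35 and 10.3), against 8.87 (7.56 and 10.6) for intergenic distal regions and 9.96 (8.09 and 12.1) for promoters. In replicate 2 it was 9.75 (8.31 and 11.5), against 10.1 (8.57 and 11.9) and 10.6 (8.70 and 12.8). Members thus had lower medians than promoters in 19 of 19 autosomes in both replicates. Against intergenic regions the order held in 16 and 17 of 19 autosomes, while the size was small: the ratio of medians was 0.970 and 0.968, and the quartile ranges overlapped almost wholly.

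Member intervals had a median width of 450.0 bp in replicate 1 (quartiles 338 and 585 bp) and 479 bp in replicate 2 (362 and 613 bp). Intergenic distal regions were 454 and 479 bp wide, with no steady order over autosomes (members wider in 10 and 9 of 19). Promoter regions were wider than members in every autosome, at 584 and 615 bp. Width rose with signal within the members. The weakest 25% by replicate 1 signal had a median width of 408 bp in replicate 1 and 450.0 bp in replicate 2, and the strongest 25% had 510.5 and 529.5 bp. More than 1 summit was listed in 22.9% of members in replicate 1 and 25% in replicate 2, against 44.7% and 49.1% of promoter regions.

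**Figure D1:**
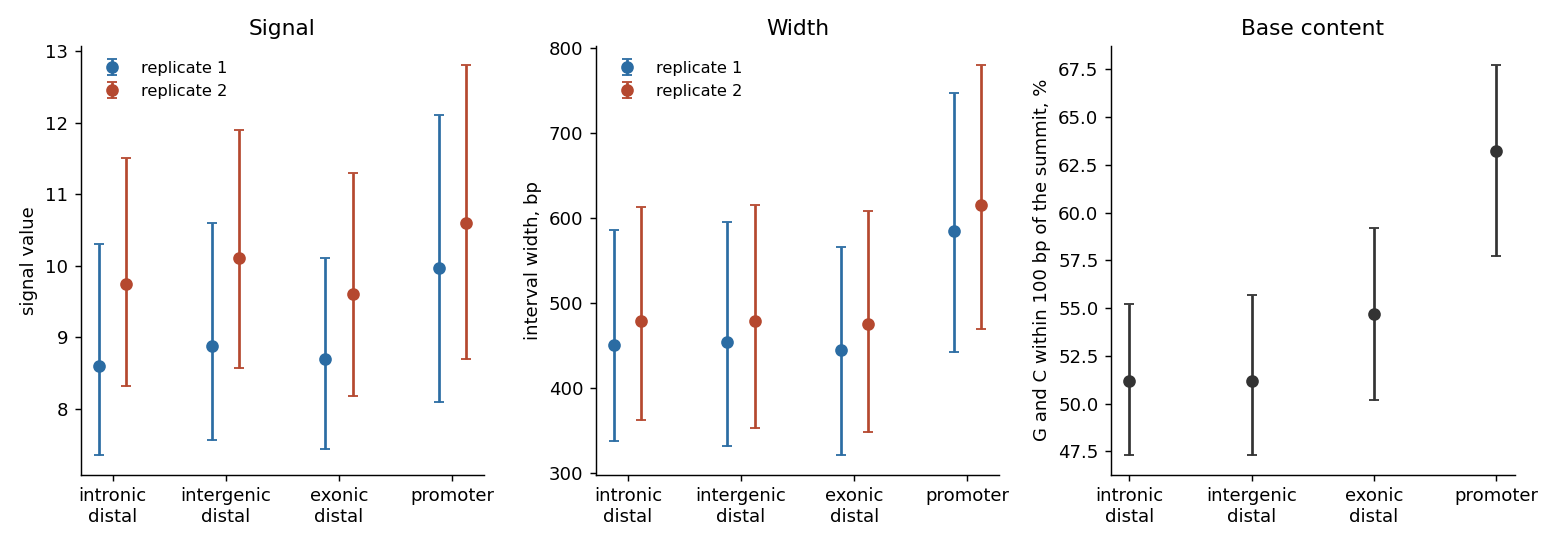
Median and quartiles (bars) of the signal value, interval width and G and C content, by class of shared region and replicate. Members lie close to intergenic distal regions on all 3 measures and below promoters, with 51.2% against 63.2% G and C.

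The signal values of the replicates went together. Across the 4601 members, which share their libraries and are not independent, Pearson's r of log2 signal was 0.75 and Spearman's rho 0.76. Replicate 2 gave the higher value in 3555 members (77.3%), with a median log2 difference (replicate 2 minus replicate 1) of 0.16 and an SD of 0.26. The same difference was seen in intergenic regions, at 0.16, and a smaller one at promoters, at 0.08. Summits of the replicates lay a median of 11 bp apart, and 93.8% of pairs were within 50 bp. In 26 members the replicate 2 value was over 2 times the replicate 1 value, with medians of 11.2 and 3.02. These were narrow replicate 1 intervals, a median of 162 bp, that overlapped wide replicate 2 intervals, a median of 678 bp, and the summits lay a median of 304 bp apart, so many of these pairs compare different summits. Only 1 member, in Npffr2, had a replicate 1 value over 2 times that of replicate 2 (20.4 against 9.71), and its summit sequence is repeated in the genome. In all, 73 members shared 36 replicate 2 intervals, among them a pair in Atp23.

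**Figure D2:**
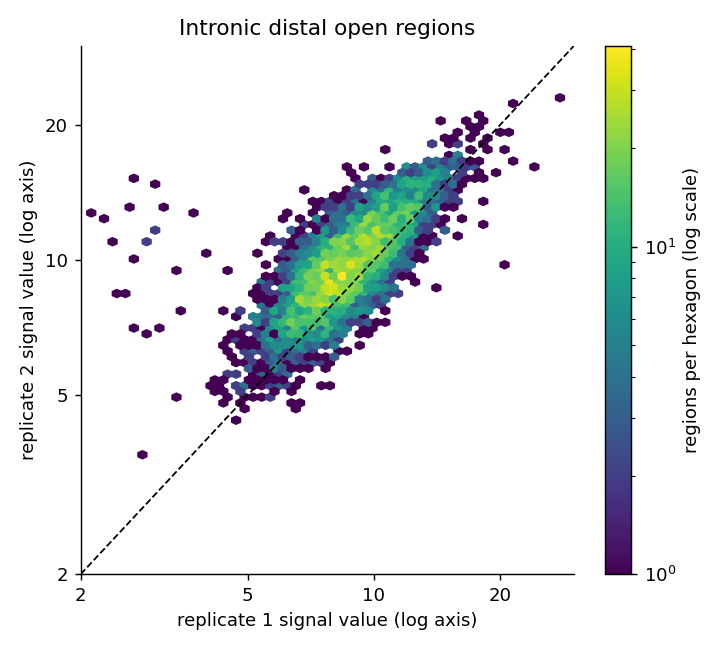
Signal value of each of the 4601 members in replicate 1 and replicate 2, both on log axes, with colour for the number of members per hexagon and a dashed line of equality. Most members lie above the line, since 77.3% were higher in replicate 2, and a loose group at the upper left, with replicate 1 values near 3, holds the narrow intervals.

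Distal intronic intervals were shared less often than promoter intervals. Of 6299 such intervals in replicate 1, 73.0% (71.9 to 74.1%) had a replicate 2 partner, against 85.6% (84.9 to 86.2%) of promoter intervals. From replicate 2 the shares were 72.9% (71.8 to 74.0%) and 90.7% (90.1 to 91.3%). Intergenic distal intervals were near the intronic value, at 74.0% and 73.6%. Unshared intronic intervals had lower median signal, 7.0 against 8.60 in replicate 1 and 8.30 against 9.74 in replicate 2. Most of them, 93.2% and 91.5%, overlapped an interval on the other replicate's less strict list. The lists made from both libraries together held 4586 and 4597 of the members.

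First introns were denser in members than later introns. In 1 representative transcript per gene, first introns held 1359 member-gene pairs in 209 Mb, or 6.49 per Mb. Later introns held 2899 pairs in 613 Mb, or 4.73 per Mb, which gives a ratio of 1.37. A pair is a member and a gene that hosts it: there were 4730 in all, since 127 members lay in more than 1 gene, and 472 pairs lay outside the introns of the representative transcript. The ratio was above 1 in 19 of 19 autosomes, from 1.01 to 1.88 with a median of 1.33. Density fell from 6.49 per Mb in intron 1 to 5.44 in intron 2, 4.55 in intron 3, 4.77 in intron 4 and 4.49 from intron 5 on. The last intron of genes with 3 or more stood above most of those, at 5.75 per Mb.

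The difference varied with distance from the TSS. From 1 to 5 kb from the representative TSS, first introns held 7.28 pairs per Mb and later introns 4.67, a ratio of 1.56. The ratio was 1.37 from 5 to 20 kb and 1.15 from 20 to 50 kb. It turned to 0.962 from 50 to 100 kb (5.30 against 5.51 per Mb) and was 1.10 beyond 100 kb. Later introns on their own were densest at 20 to 50 kb, with 6.00 per Mb. By intron length the ratio stayed above 1, at 1.26 for introns under 5 kb, 1.41 for 5 to 20 kb, 1.62 for 20 to 50 kb and 1.52 for longer ones.

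Members in first introns were weaker. Their median signal was 8.32 in replicate 1 and 9.22 in replicate 2, against 8.70 and 9.94 for later introns, lower in 14 and 17 of 19 autosomes. The gap was widest near the TSS: from 1 to 5 kb the replicate 1 medians were 7.20 and 8.04. Farther out first introns were higher, at 8.97 against 8.60 from 50 to 100 kb and 8.88 against 8.76 beyond 100 kb. First introns held 36.1% of the weakest 25% of members by replicate 1 signal and 26.2% of the strongest 25%. Among regions shared between the strongest 50% of each list, the density ratio was 1.14. Widths and base content of the 2 kinds of intron were close, at 446 and 451 bp and at 51.7% and 51.2% G and C.

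**Figure D3:**
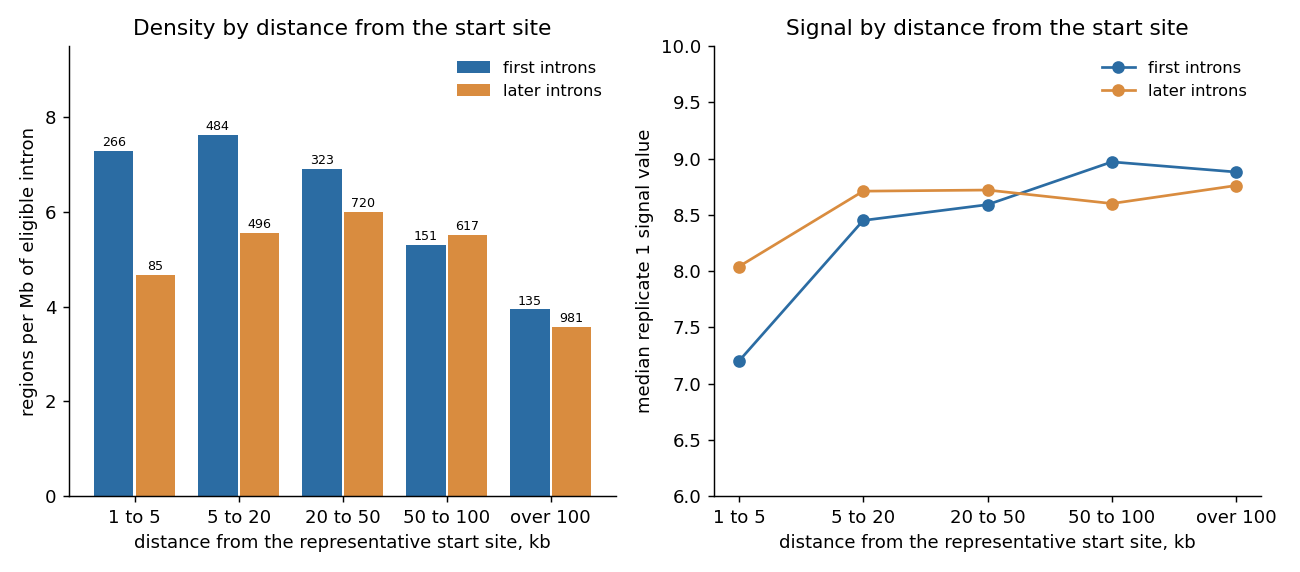
Left, member-gene pairs per Mb of eligible intron by distance from the representative TSS, with pair numbers over the bars; right, median replicate 1 signal of the same members. First introns are denser up to 50 kb and lower in signal from 1 to 50 kb, and the order of both turns from 50 to 100 kb. Beyond 100 kb first introns are denser again and still higher in signal.

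Within introns, cut into 3 equal parts, there was little preference for position. The middle part held 6.77 pairs per Mb in first introns, against 6.25 in the 5′ part and 6.42 in the 3′ part. Later introns gave 4.96, 4.58 and 4.64. Members lay a median of 40.6 kb from the representative TSS of their host, 13.5 kb from the nearest protein-coding TSS and 3.89 kb from the nearest exon edge. The nearest other member was a median of 54.3 kb away, and 757 members (16.5%) had one within 10 kb. Just inside the 1 kb limit, 220 members at 1000 to 1500 bp from a TSS had median signals of 7.73 and 8.63. Just outside it, 327 intronic regions at 500 to 1000 bp had 7.73 and 8.85.

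Base content set the members apart from promoters and from intron sequence at large. The median G and C content of their summit windows was 51.2% (quartiles 47.3 and 55.2%), equal to intergenic distal regions and below the 63.2% of promoters. Eligible intron sequence outside every interval of the replicates' own lists, less strict ones included, was cut into 4192613 tiles of the same length. The tiles had a median of 42.3% (36.8 and 47.3%), and 15.1% of them reached 50%. Intervals found only on the series-level lists were not left out. Much of the rise was local: mean G and C was 53.1% in the 50 bp just downstream of the summit, 46.2% at 175 bp and 45.4% at 975 bp. The 45.4% still lay above the 42.3% of the tiles, although a mean and a median are unlike measures.

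CpG pairs, the sites of DNA methylation, were few. The ratio of observed to expected CpG had a median of 0.231 in members, 0.266 in intergenic distal regions, 0.771 at promoters and 0.151 in the intron tiles. Members were below intergenic regions in 19 of 19 autosomes. Only 152 members (3.30%) were rich in CpG (G and C of at least 50% and a ratio of at least 0.6), against 9.87% of intergenic distal regions, 72.3% of promoters and 0.379% of intron tiles. A TSS of a noncoding gene lay within 1 kb of 17.8% of the CpG-rich members and of 3.03% of the others. In all, 3.52% of members and 10.4% of intergenic distal regions had such a TSS. No CpG at all was found in 366 members, and their median signals, 8.72 and 10.1, were slightly above the 8.60 and 9.75 of all members.

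**Figure D4:**
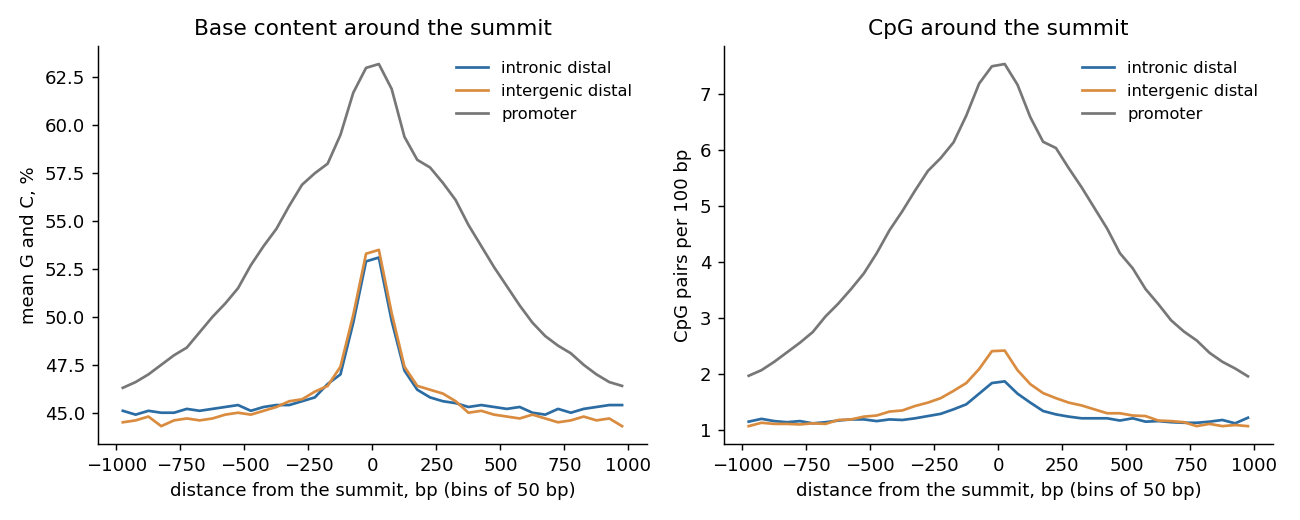
Mean G and C content (left) and CpG pairs per 100 bp (right) in 50 bp bins around the summit, for members, intergenic distal regions and promoters. In members both rise within 200 bp of the summit, to 53.1% G and C and 1.87 CpG per 100 bp, far below the promoters.

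The consensus letters of blood transcription factors were frequent at the summits. The RUNX letters TGTGGTT stood in 784 member windows, 17.0% (16 to 18.2%). Flanks of the same regions, centred 600 bp to either side, held them in 5.25%, and intron tiles weighted to the members' base content in 4.19%. GAGGAAG, the ETS form that PU.1 and its relatives favour, stood in 27.7% of windows, against 7.34% of flanks and 8.96% of weighted tiles. The ETS form CAGGAAG stood in 26.3%, against 8.28% and 9.67%. Intronic windows also held these letters more often than promoter windows, where the shares were 3.29% for RUNX, 12% for GAGGAAG and 11.1% for CAGGAAG. Over all 19727 shared regions they were 10.2%, 19.3% and 18.2%.

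The other families varied. AP-1 letters, TGANTCA, were in 10.8% of members and 5.27% of weighted tiles, and the E-box CAGCTG in 18.2% and 12.8%. The GATA letters AGATAA were in 9.15% of members, above the 7.24% of weighted tiles but below the 11.3% of flanks and the 13.1% of unweighted tiles. The direction thus turned with the reference, and neither flanks nor unweighted tiles were matched to the members' base content. The E-box CAGATG was close to the weighted tiles (17.9% against 16.9%). MEIS letters, TGACAG, were in 19.4% against 15.5%. The C/EBP letters TTGCNNAA matched 460 members (Wilson interval 9.16 to 10.9%), against 8.05% of flanks, 6.36% of weighted tiles and 8.94% of unweighted tiles. The IRF letters GAAANNGAA matched 368 members (7.25 to 8.82%), against 6.35%, 4.67% and 7.45%. For both, flanks and unweighted tiles thus lay closer to the members than weighted tiles did. Over all shared regions the shares were 7.73% for C/EBP and 6.19% for IRF. The PAR bZIP letters TTACNTAA, of the family of HLF, were in 2.13% of members, 2.08% of flanks, 0.981% of weighted tiles and 2.66% of unweighted tiles. Core letters of CTCF, CCAGGGGGC, stood in 43 members (0.935%), against 0.250% of flanks, 0.264% of weighted tiles and 1.37% of intergenic distal regions. Rare as they were, their ratio to the weighted tiles, 3.54, lay between those of GAGGAAG (3.09) and RUNX (4.07). The STAT letters TTCCNGGAA were in 0.565% of members, between the 0.528% of weighted tiles and the 0.652% of flanks. The SP and KLF letters GGGCGG were in 9.15% of members and 58.7% of promoters. The NF-Y letters CCAAT, at 19.4% of members and 37.6% of promoters, were below the 23.0% of weighted tiles. Some searched motifs can overlap one another, and a match is not evidence of binding.

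At least 1 of the ETS, RUNX and GATA families was matched in all but 1818 members (39.5%), and 40 members (0.869%) held all 3. Among intergenic distal regions 46.7% held none, and among promoters 74.3%. ETS letters of either form were in 47.4% of members and 40.7% of intergenic regions. RUNX letters were in 14.7% of the weakest 25% and 20% of the strongest 25% by replicate 1 signal, and GAGGAAG in 27.0% and 32.2%. GATA letters went the other way, from 10.2% to 8.43%. In first and later introns the shares were 18.2% and 16.4% for RUNX and 9.29% and 9.05% for GATA. They were 29.9% and 27.2% for GAGGAAG and 12.4% and 9.99% for AP-1, while CAGGAAG went the other way, at 25.5% and 26.7%.

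**Figure D5:**
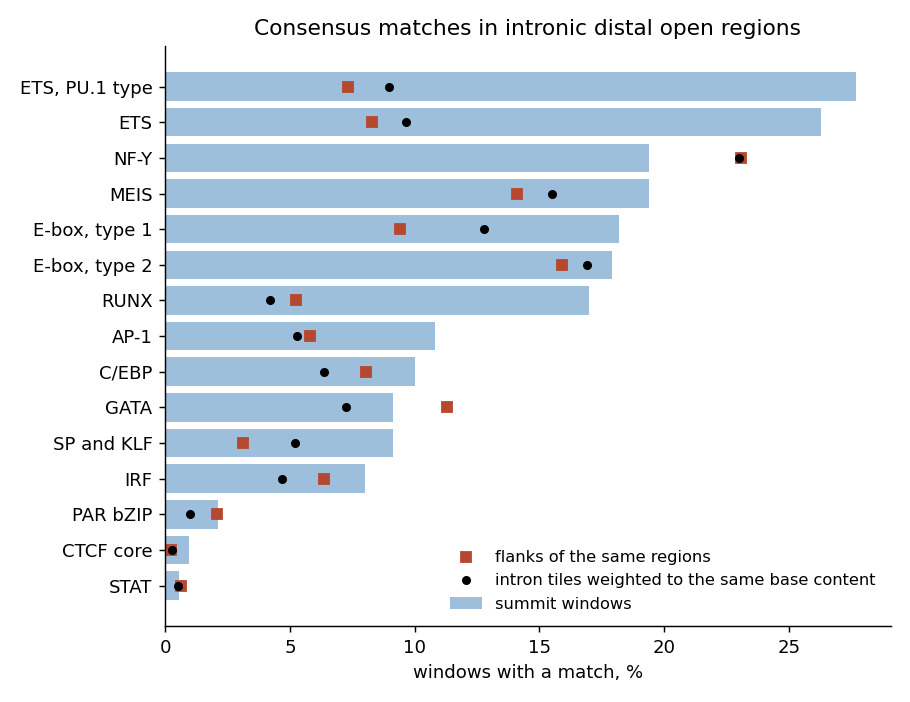
Share of member windows with a match to each consensus (bars), with the flanks of the same regions (red squares) and intron tiles weighted to the same base content (black dots). ETS and RUNX bars stand far beyond both references, while the GATA bar lies between them. The flanks are not matched to the base content of the summit windows.

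Members were hosted by 2890 of 21938 protein-coding genes, a background of 13.2%. Of these hosts 1904 held 1 member, 541 held 2, 247 held 3, 114 held 4 and 84 held 5 or more. The 445 genes with at least 3 held 36.9% of all pairs. Hosts were long genes: they had a median of 71.4 kb of eligible intron, against 11 kb for other genes that had any. The counts of the gene lists are therefore given with their density.

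The genes with the most members were mostly very long models. The predicted gene Gm20388 counted 38, all in a first intron that spans other genes within 3859 kb of eligible sequence, at 0.985 per 100 kb. Fgfr2, a fibroblast growth factor receptor whose annotated span also reaches far beyond its representative transcript, counted 20 in 2645 kb, at 0.756 per 100 kb. Both densities exceed the 5.18 per Mb of all genes, whereas Macrod2, with 8 members at 0.405 per 100 kb, fell below it. The phosphodiesterase gene Pde4d had 14 (0.954 per 100 kb), the neuron navigator Nav2 11 (1.68) and the oxidoreductase gene Wwox 10 (1.12). The protein kinase C gene Prkce had 9 (1.89 per 100 kb), as did the sodium-calcium exchanger Slc8a1 (2.64). Immp2l had 8 (0.874 per 100 kb), like Macrod2. The other 11 of the top 20 had 7 each, at 0.524 (Gm37240) to 3.49 (E130114P18Rik) per 100 kb: Chrm3, E130114P18Rik, Ext1, Foxp1, Gm20696, Gm37240, Gse1, Maml3, Med12l, Rasgef1b and Snx29. Snx30 and Zfhx3 also had 7, at 7.88 and 0.708 per 100 kb, and fell outside the top 20 by alphabetical order only. Snx30 is a shorter gene, with 88.8 kb of eligible intron. Ext1, an enzyme of heparan sulfate synthesis, had all 7 in its first intron, and Foxp1, a forkhead transcription factor, had none of its 7 there. Without genes with Gm or Rik names, 4485 members and 2799 hosts were left, and the first to later ratio was again 1.37.

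Signal varied widely among the members of 1 host. The 14 Pde4d members ran from 6.38 to 14.8 in replicate 1, with a median of 8.92, and from 4.71 to 15.4 in replicate 2, with a median of 11.7. The strongest, at chr13:109822170-109822827 in intron 7, scored 14.8 and 15.4. Those of Nav2 ran from 6.54 to 13.0 in replicate 1 and from 7.39 to 13.9 in replicate 2, with medians of 10.6 and 11. Those of Prkce had medians of 7.69 and 8.86, below the medians of all members in both replicates. By density, among genes with at least 3 members and 10 kb of eligible intron, Asb2 led with 11.1 per 100 kb. Bach1, which encodes a transcription factor of heme and iron genes, had 11, with all 3 members in its first intron. Notch1, the receptor of the Notch pathway, had 3 members at 8.14 per 100 kb, and Arhgef10 had 6 at 8.09. These genes were ranked by the value given, so their densities are a description.

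Transcription factor genes of stem cells were hosts in 10 of 20 cases, against 13.2% of all genes. They held 29 members at 12.3 per Mb, against 5.18 over all genes. Such genes were listed with earlier results of these data known. Mecom, which encodes the zinc finger factor EVI1, held 6 in 574 kb. In replicate 1 they scored 8.07, 6.48, 12.3, 7.94, 8.92 and 7.44 along the chromosome, and in replicate 2 10.2, 7.74, 10.5, 8.51, 10.6 and 8.15. The one at 12.3, whose window is printed above, was the highest in replicate 1, while in replicate 2 it was level with the 10.6 of another. Runx1, the core blood factor that binds the RUNX letters, held 6 in 209.7 kb, none in its first intron. In replicate 1 they scored 9.73, 7.66, 6.43, 8.09, 9.36 and 6.05 along the chromosome, and in replicate 2 9.5, 9.43, 7.78, 10.2, 8.91 and 6.03. The one at 24.3 kb from the representative TSS, at 9.36 and 8.91, is among the higher in replicate 1 only, and the one at 3.89 kb was the lowest in both.

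Etv6, an ETS repressor needed by adult stem cells, held 4. They scored 10, 7.31, 7.97 and 7.48 in replicate 1 and 11.6, 7.66, 9.03 and 9.41 in replicate 2, and the first, 29.5 kb from the TSS in intron 1, was the highest in both. Fli1, an ETS activator, held 4, all in intron 1. They scored 6.33, 4.52, 7.38 and 4.87 in replicate 1 and 4.76, 6.10, 6.53 and 5.29 in replicate 2, all below the medians of all members. The first 2 lay 467 and 404 bp from a noncoding TSS, which 3.52% of all members have within 1 kb. The last lay 1371 bp from a protein-coding TSS, just past the 1 kb limit. The homeobox factor gene Meis1 held 2, at 10.6 and 11.1 in replicate 1 and 10.9 and 10.9 in replicate 2, above the member medians. Ikzf2 held 2 that differed, with 10.1 and 9.18 for one and 5.88 and 5.30 for the other. Prdm16 held 2, with 6.86 and 7.50 for one and 9.28 and 10.3 for the other, both in intron 1.

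Gata2, whose factor maintains stem cells, had 3.56 kb of eligible intron and 1 member, at chr6:88202953-88203604. It lay in intron 4, 4.91 kb from the representative TSS, and scored 6.86 and 7.44, at percentiles 20.8 and 15.2 of the replicates' lists. Erg, an ETS factor gene, held 1, at 5.71 and 6.04, below the member medians in both replicates. Gfi1, Gfi1b, Hlf, Hoxa9, Ldb1, Lmo2, Lyl1, Myb, Spi1 and Tal1 held 0. Their eligible introns were short, from 0.706 kb in Hoxa9 to 43.5 kb in Hlf, so 0 members says little of them. Of these 29 members, none had a summit sequence that is repeated on the assembled chromosomes.

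The next shares stand against 13.2% hosts and 5.18 members per Mb over all genes, and long genes are hosts more often. Among stem cell surface and niche genes 6 of 17 were hosts, at 14.0 per Mb. The ligand gene Angpt1 had 4, Cd47 had 3 and the surface marker Cd34 had 1. Cytokine and GTPase signalling genes counted 8 of 19 at 8.56 per Mb, led by the ubiquitin ligase gene Cblb with 5 and by Plcg2 and Vav3 with 3 each. Chromatin regulators counted 7 of 13 at 11.5 per Mb, with 3 members each in Arid1b, Chd7 and Dnmt3a, the last a DNA methyltransferase. Cell cycle genes counted 3 of 13 at 10.8 per Mb, in 0.557 Mb of eligible intron, and Ccnd3, which encodes cyclin D3, had 4, all in its first intron. Cdkn1a and E2f2 had 1 each.

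For markers of other cells the share of hosts is read against the 13.2% of all genes, and with 0 to 4 hosts in a list none of these shares is precise. For megakaryocyte markers 4 of 16 were hosts at 19.8 per Mb, with 3 members in Plek and 2 each in Rab27b, Selp and Vwf, the last the gene of von Willebrand factor. Erythroid markers had 1 of 14, Ank1 with 1 member, at 3.08 per Mb. B cell markers had 1 of 13, Ebf1 with 1, at 1.45 per Mb. T and NK cell markers had 2 of 16, among them Gata3 with 1, at 3.77 per Mb. Granulocyte and monocyte markers had 0 of 16 (Wilson interval 0 to 19.4%), but only 0.184 Mb of eligible intron. Endothelial and stromal markers had 2 of 14 at 8.18 per Mb, with 4 members in Flt1 and 1 in Pdgfrb. Whether other cells in the sort add to these regions was not tested.

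Long neuronal and muscle genes showed how length and density part. As many as 8 of 12 were hosts, with 23 members, more than the 18 in signalling genes. Dlg2 had 6, Nrxn3 4, and Csmd1 3. Their density was 1.53 per Mb in 15 Mb, the lowest of any list with more than 1 member.

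Genes with an open promoter in both replicates were denser hosts. They held 2594 pairs at 6.42 per Mb, and genes without held 2136 at 4.2 per Mb, a ratio of 1.53. The order held in 19 of 19 autosomes, from 1.10 to 2.26. It depended on gene length: in 4 classes of equal gene number, from the shortest to the longest eligible intron, the ratio was 1.24, 0.976, 1.16 and 1.65, so that in the second class genes with an open promoter were slightly less dense. In the longest class 42.5% of genes with an open promoter and 36.2% of the others were hosts.

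The 10 strongest members by the lower percentile lay in genes of mixed function. After Gnb1l (27.8 in replicate 1 and 23.0 in replicate 2), Zfp804b (21.5 and 22.0) and Nkain3 (20.8 and 19.4) came Cldn34d on the X chromosome (20 and 19.2) and Mrps27, a mitochondrial ribosomal protein gene (18.1 and 20.9). Next were Nrxn3 (19.1 and 18.8), Erc2 (18 and 20.2), Tmem167 (17.8 and 19.6), the ephrin gene Efna5 (17.5 and 19.1) and Dph5 (17.1 and 18.4). None of these hosts is on the stem cell lists. The first 3 were narrow, at 261, 233 and 244 bp in replicate 1, against 433 to 826 bp for the other 7. The Mrps27 window stood apart by 61.2% G and C and an observed to expected CpG ratio of 0.876. Over all members, 79 (1.72%) had a summit sequence of 31 bases repeated on the assembled chromosomes. In 4 members it occurs in the mitochondrial genome. Without the repeated ones the share of distal regions in introns was 43.0% and the signal ratio to intergenic regions 0.971.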

How the data were processed

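Both libraries were deposited as peak lists in mm10, per the labels. Aligner, peak caller and any shift of read ends: not given in the sources used here. Each deposited signal value is the score of 1 summit from the authors' peak caller, with no counts, so depth and its precision are unknown. Intervals listed once per summit were counted once. The members rest on each replicate's IDR-thresholded list (IDR, irreproducible discovery rate, measures how alike peaks rank in 2 samples of reads), and the alternatives on less strict pseudoreplicated lists and 2 series-level lists. The series-level list named conservative was the longer of the 2, with 43478 intervals against 36033 on the one named thresholded. Genes came from GENCODE M21, and sequence from RefSeq's GRCm38.p6, whose chromosome lengths match. The representative transcript was the APPRIS principal one, then the longest spliced. Masked bases are those in lower case in that genome.

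Shares have 95% Wilson intervals, which cover counting of regions only. Regions, genes and tiles are not replicates and the series has 1 group, so no test was made, and autosomes serve as a count of how steady an order is. Consensus letters were searched on both strands in the windows at the summits, and tiles were weighted to the members in G and C bins of 5%. Python 3.11.15, numpy 2.4.6 and pandas 2.3.3 were used. Simulated data tested the search for letters and the lengths of eligible intron, but not the code that assigns members to first or later introns. Named genes were the 20 hosts with the most members (ties alphabetical), the 10 members highest by the lower signal percentile, every stem cell transcription factor, and up to 3 genes with the most members of each other list; the densest hosts were chosen after their values were seen. Values of some genes that this rule names are not reported here. The members and lists were chosen with earlier results of these data known. Alternatives changed the overlap, TSS distance, TSS and exon sets, lists, transcript, window and replicate; those on gene models, repeats and representative introns were added after seeing the data.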

Additional observations from a re-analysis of the deposited data

How the results depend on the processing

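With 2 libraries from 1 group, an alternative was taken to move a value when it shifted it by more than 1 SD between the single-replicate values, a narrow yardstick, and a count of genes when it changed by over 1.5 times. No ratio crossed 1 under any alternative run. No paired analysis was possible because there is 1 group. With either replicate alone, the share of distal regions in introns was 42.6 to 42.7%, the first to later ratio 1.34 to 1.37, the signal ratio 0.971 to 0.976, the width 420.0 to 444 bp, G and C 50.7 to 51.2% and hosts 3606 to 3623.

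The share in introns (42.5%) was 43.1% with distal set at 500 bp, 41.4% at 2000 bp, 43.3% with TSSs of protein-coding transcripts only, 43.6% on the less strict lists, 43.2% and 43.6% on the series-level thresholded and conservative lists, 40.0% for the strongest 50% of intervals, 41.9% with exons of every gene type left out, 41.4% without Gm and Rik genes, 43.0% with unique summits and 38.7% in introns of the representative transcript only. The first to later ratio (1.37) was 1.39 with 50% overlap, 1.45 at 500 bp, 1.34 at 2000 bp, 1.35 on the series-level thresholded list, 1.14 for the strongest 50%, 1.31 for the longest-span transcript and 1.29 for intron 1 of any transcript. The signal ratio (0.970) was 0.966 at 500 bp, 0.974 at 2000 bp, 0.989 on the less strict lists and 0.986 for the strongest 50%. The median width (450.0 bp) was 337 bp on the less strict lists, 415 bp on the conservative list, 487 bp for the strongest 50% and 479 bp in replicate 2. G and C (51.2%) was 51.7% at 500 bp and with TSSs of protein-coding transcripts only, 50.2% on the less strict lists, 50.7% and 50.2% on the series-level lists, 53.5% within 50 bp of the summit, 49.1% within 200 bp and 49.3% over whole intervals. Hosts (2890) numbered 6173 on the less strict lists, 4966 and 5690 on the series-level lists and 1466 for the strongest 50%, where fewer or more regions enter by construction. Some alternatives removed members but kept all 10824 distal regions in the total, so the share in introns fell by construction. They were exons of every gene type left out (41.9%), no Gm and Rik genes (41.4%) and introns of the representative transcript only (38.7%). For the remaining shifts the cause was not tested.

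The lists give no reads per region, so the precision of a single signal value is unknown, and no gene can be called free of such regions.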
